A study of Homo sapiens with 4 samples.

Results

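The genes described here are NSD2, FGFR3, NRAS, CCND1, CCND2, MAF and ITGB7, which mark or drive the genetic subgroups of multiple myeloma, measured in the H929 myeloma line with and without meayamicin B. They were chosen by name, as every row of the array table whose only gene symbol was 1 of these 7, and 6 of the 7 had such a row, 1 each, among 33616 named genes. NRAS had no row of its own and was not analysed here. The arrays came from 2 samples given 3 nM meayamicin B over 8 h and from 2 untreated samples, all of the same established cell line, with total RNA labelled by a whole-transcript kit. The compound is a splicing inhibitor that targets SF3B, the part of the spliceosome that binds the intron branch point. H929 is a single cell line, so no value here speaks to other myelomas, and each row summarises a whole gene, so isoforms and unspliced RNA were not told apart.

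Multiple myeloma is a cancer of plasma cells in which an oncogene is often moved next to the immunoglobulin heavy chain locus on chromosome 14. H929 carries the exchange between chromosomes 4 and 14, which places NSD2 on one derivative chromosome and FGFR3 on the other under the control of immunoglobulin enhancers, and it also carries an activating mutation of NRAS. NSD2 is a histone methyltransferase that adds dimethyl marks to lysine K36 of histone H3, FGFR3 is a receptor tyrosine kinase for fibroblast growth factors, and NRAS relays such receptor signals to the RAF, MEK and ERK kinases. CCND1 and MAF are the oncogenes moved in other subgroups of the disease, from chromosomes 11 and 16. CCND2 and ITGB7 are genes that MAF is known to activate in myeloma cells.

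Values are RMA expression on the log2 scale, in which 1 unit is a 2-fold change. The 95th percentile of 612 negative control rows served as the background of each array. It stood at 5.03 and 5.13 in the meayamicin B arrays, against 4.50 and 4.76 in the untreated arrays, so dim rows have less room above it after treatment. The plasma cell label was borne out by 9 of 10 plasma cell markers above background in all 4 arrays, JCHAIN among them at 13.26 and 13.11 in treated cells and 13.23 and 13.32 in untreated cells, while CD27 was above it in none. Of 31 measured markers of 6 other cell types, 9 lay above background in all 4 arrays. These were 1 B cell, 1 T cell, 2 monocyte, 1 erythroid, 2 stromal and 2 epithelial markers. Of all 33616 named genes, 12398 lay above background in all 4 arrays. Rows of different genes differ in probe affinity, so the level of one gene is not set against that of another. Spike-in poly-A RNAs dap, phe and thr were bright only in replicate 1 arrays, of treated and untreated cells alike, dap for example at 9.97 in treated and 9.42 in untreated replicate 1, against 3.19 in treated and 2.88 in untreated replicate 2. Differences are therefore also given within each replicate number. Of the 10 plasma cell markers, SLAMF7, an adhesion receptor of plasma cells, fell when limma's prior followed the signal level (-1.52, adjusted p = 0.00243), and PRDM1 is given below. With the default prior 0 of the 10 passed, with 2 at an unadjusted p under 0.05, where 9.42% of rows had one. With the prior that followed the signal level, SLAMF7 and PRDM1 were the 2 that passed, where 3.15% of named genes did. In such bulk RNA, fewer cells of a type and less RNA per cell cannot be told apart.

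The 6 measured genes are together called driver genes here, as a short name. Of these, only NSD2 and FGFR3 are moved by the exchange that H929 carries. All 6 lay above background in all 4 arrays. After meayamicin B, 5 of the 6 had lower means and 1, ITGB7, a slightly higher one (0.06, or -0.024 when arrays are centred on ribosomal protein genes), and none of these differences passed the test. By limma with the default prior, 0 of the 6 had an adjusted p under 0.05, where 0.0162% of all 135750 rows and 0.0327% of the named genes passed. With a prior that follows the signal level, called the trended prior, again 0 of the 6 passed, where 1.17% of all rows and 3.15% of the named genes did. At an unadjusted p under 0.05 there were 2 of the 6 with the default prior, FGFR3 and CCND1, where 9.42% of rows passed. With the trended prior there were 4 of the 6, where 9.97% did. These shares of rows and of named genes, here and below, include dim ones. Of 33616 named genes, 14296 lay above background in both arrays of at least 1 group. Shares among genes that bright were not worked out, so a count above these shares does not set the driver genes or a list apart. The 2 groups of arrays did not overlap for 5 of the 6 genes, where the same held for 52.4% of the 24741 rows above background in all arrays. For 4 of the 6 both treated arrays lay below both untreated arrays, a pattern shared by 27.1% of those rows. The median log2 difference of the 6 genes was -0.36, against -0.07 over the 12398 named genes above background in all arrays.

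**Figure D1:**
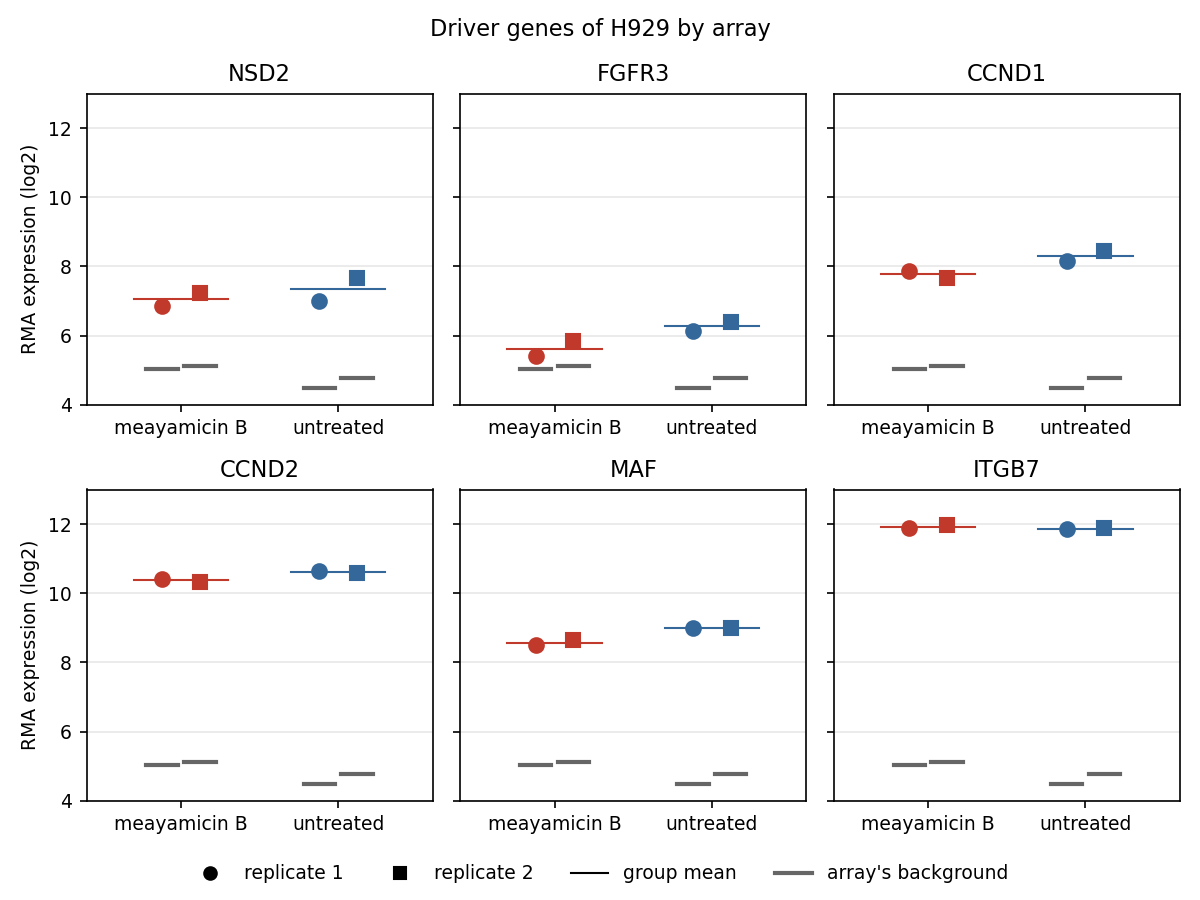
RMA expression (log2, vertical axis) of the 6 measured driver genes in each array, with meayamicin B in red and untreated in blue. Circles are replicate 1 arrays, squares replicate 2 arrays, thin lines group means and grey bars the background of each array. FGFR3 lies nearest to the background, and the 2 groups overlap for NSD2.

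NSD2 lies on chromosome 4 at 1871393 to 1982192 (GRCh38.p14). Its row read 6.86 and 7.23 in the meayamicin B arrays, against 7.004 and 7.67 in the untreated arrays. The 2 groups overlap, because the higher treated array lies above the lower untreated array. The group means were 7.05 ± 0.26 in treated cells and 7.34 ± 0.47 in untreated cells (SD, n = 2 arrays each), a log2 difference of -0.29 (SE 0.27, limma adjusted p = 0.818). The 95% confidence interval ran from -0.93 to 0.35 on the log2 scale, which is 0.523 to 1.28 times the untreated level. Within replicate numbers the difference was -0.14 for replicate 1 and -0.44 for replicate 2. It was 0.044 without untreated replicate 2, the array with the highest value, so 1 array decides its sign. SCARNA22, a small RNA of Cajal bodies whose gene lies within NSD2, at 1974636 to 1974760, read 8.31 and 8.61 in treated cells and 8.33 and 8.30 in untreated cells, a difference of 0.14 (SE 0.20). It was picked for its position, and whether its RNA adds to the NSD2 row was not tested.

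FGFR3 lies on the same chromosome at 1793293 to 1808867, and only LETM1 lies between it and NSD2 among the protein-coding genes of the RefSeq table. Its row read 5.40 and 5.84 in the meayamicin B arrays, against 6.14 and 6.40 in the untreated arrays. Both treated arrays lie below both untreated arrays. The means were 5.62 ± 0.31 in treated cells and 6.27 ± 0.19 in untreated cells (SD, n = 2 arrays each). This is the largest mean difference among the 6 genes, at -0.65 (SE 0.23, limma adjusted p = 0.427 with the default prior and 0.328 with the trended prior). It corresponds to 63.7% of the untreated level, with a 95% confidence interval of 0.439 to 0.924 times that level before any adjustment for the number of rows. Within replicate numbers it was -0.74 for replicate 1 and -0.56 for replicate 2. The row was dim: it stood 0.37 and 0.71 above the background of the treated arrays, against 1.64 and 1.64 above that of the untreated arrays, and part of that gap is the higher background of the treated arrays. Without meayamicin B replicate 1 the difference was -0.43, and without meayamicin B replicate 2 it was -0.87.

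The promoters of NSD2 and FGFR3 are shown because the chromosome exchange is what joins these genes to other regulatory sequence. Each window runs from 250 bases before to 50 bases after the annotated start, in RefSeq GRCh38.p14, at chr4:1871143-1871442 on the plus strand for NSD2 and chr4:1793043-1793342 on the plus strand for FGFR3. Capitals mark matches, on either strand, to any of 7 short motifs: the GC box GGGCGG, the CCAAT box CCAAT, the TATA box TATAAA, the E2F site TTTCCCGC, the cyclic AMP response element TGACGTCA, the AP-1 site TGANTCA and the MAF half-site TGCTGA.
NSD2: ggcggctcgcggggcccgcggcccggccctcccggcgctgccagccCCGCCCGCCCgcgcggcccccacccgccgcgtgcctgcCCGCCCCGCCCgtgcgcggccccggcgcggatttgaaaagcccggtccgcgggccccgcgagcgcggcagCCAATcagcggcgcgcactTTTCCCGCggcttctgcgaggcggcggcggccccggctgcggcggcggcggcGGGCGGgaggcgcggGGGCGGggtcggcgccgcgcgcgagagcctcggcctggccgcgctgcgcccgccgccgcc
FGFR3: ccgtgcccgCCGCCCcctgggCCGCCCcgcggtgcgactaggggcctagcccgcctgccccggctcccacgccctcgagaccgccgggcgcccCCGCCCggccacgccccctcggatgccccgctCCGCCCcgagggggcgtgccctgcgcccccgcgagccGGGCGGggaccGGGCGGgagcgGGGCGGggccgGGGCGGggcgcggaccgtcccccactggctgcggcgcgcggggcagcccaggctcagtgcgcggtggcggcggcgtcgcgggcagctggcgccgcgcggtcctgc
Both windows are rich in G and C, 86.7% for NSD2 and 86.3% for FGFR3, against a median of 58.7% over 35116 promoters. The FGFR3 window holds 8 GC boxes and none of the other motifs. The NSD2 window holds 6 GC boxes, with 2 overlapping pairs among them, 1 CCAAT box and 1 E2F site, whose match lies 77 bases before the start. A GC box occurs in 45.0% of all promoters of this length, a CCAAT box in 34.6% and this E2F site in 1.63%. These matches describe letters in the reference genome only.

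The exchange breaks chromosome 4 near NSD2, and all protein-coding genes within 500 kb of NSD2 were read. Of 18 such genes, 14 had a row of their own, FGFR3 among them. In limma 0 of the 14 passed with either prior, with 1 at an unadjusted p under 0.05, where 9.42% of rows had one. Their median log2 difference was 0.04, against -0.01 over all named genes. LETM1, a mitochondrial inner membrane protein gene, read 7.63 and 7.82 in treated cells and 7.25 and 7.73 in untreated cells, a difference of 0.24 (SE 0.23). TACC3, a mitotic spindle gene on the far side of FGFR3, stood at -0.16 (SE 0.22), and SLBP, which binds the stem-loop of histone mRNA, at -0.11 (SE 0.19). ZFYVE28 had the highest moderated t among the genes above background, at 0.25 (SE 0.19). UVSSA, a transcription-coupled repair gene, was below background in both treated arrays, at 4.52 and 4.78, against 4.98 and 4.76 in the untreated arrays. FGFR3 had the lowest value of the 14.

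**Figure D2:**
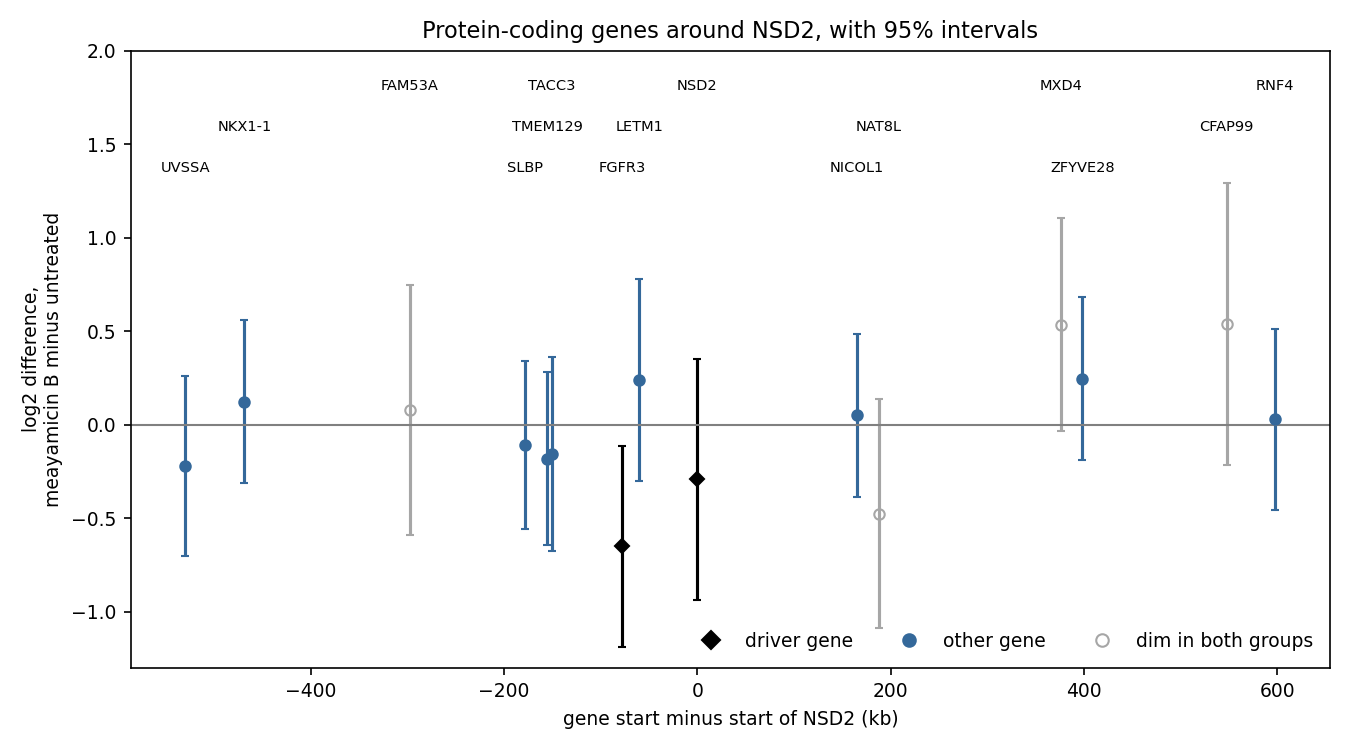
Log2 difference, meayamicin B minus untreated (vertical axis), of the protein-coding genes around NSD2 against the distance of each gene's start from that of NSD2 in kb. Bars are 95% confidence intervals, black diamonds are FGFR3 and NSD2, and open points lay below background in at least 1 array of each group. Only the interval of FGFR3 lies clear of 0, and its adjusted p of 0.427 did not pass.

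FGF receptors, their ligands and their adaptors were then read from lists. FGFR4, a paralogue of FGFR3, read 7.04 and 7.31 in the meayamicin B arrays, against 7.01 and 6.83 in the untreated arrays, a difference of 0.26 (SE 0.20). FGFRL1, a receptor without a kinase domain, stood at -0.22 (SE 0.19), while FGFR1 and FGFR2 were above background in no array. Of the 5 receptors, FGFR3 included, 0 passed with either prior, and their median was -0.22. At an unadjusted p under 0.05 there were 2 of the 5, FGFR3 and FGFR2, where 9.42% of rows had one. FGFR2 went the other way, at 0.49 (SE 0.19), with no array above background. Of 9 measured adaptor genes 0 passed with either prior, with 3 at an unadjusted p under 0.05. Their median was 0.04. The lowest by moderated t were PLCG2, a phospholipase (-0.81, SE 0.21, limma adjusted p = 0.276), and CBL, a ubiquitin ligase that turns receptors over (-0.78, SE 0.22). The highest were FRS3, a docking protein of FGF receptors (0.62, SE 0.21), and GRB2, which links receptors to SOS proteins (0.32, SE 0.21).

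FGF ligand genes were mostly dim: of 20 measured, 10 were above background in no array, and the median was 0.11. FGF18, a ligand that can bind FGFR3, read 5.49 and 5.80 in the meayamicin B arrays, against 4.40 and 3.81 in the untreated arrays, where it was below background in both. With the trended prior it rose (limma adjusted p = 0.0280), as the only 1 of the 20 to pass, where 3.15% of named genes did. It did not pass with the default prior (limma adjusted p = 0.116). The treated mean of FGF18 lay 2.02-fold above the background of the untreated arrays. The background itself was higher in the treated arrays, and its part in this difference was not tested. The call of FGF18 passed in 1 of the 4 fits that left out an array, the one without untreated replicate 1, with an adjusted p from 0.0330 to 0.162. FGF9 stood at 0.21 (SE 0.18) and FGF19 at -0.40 (SE 0.28), and FGF20 was below background in both treated arrays, at 4.46 and 4.57, against 4.70 and 4.98 in the untreated arrays.

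RAS genes and the cascade below them stand in for NRAS only as relatives and partners. HRAS read 7.14 and 7.66 in the meayamicin B arrays, against 6.89 and 6.89 in the untreated arrays, a difference of 0.51 (SE 0.23, limma adjusted p = 0.561). Both treated arrays lie above both untreated arrays. RRAS2 stood at 0.14 (SE 0.23), RIT1 at -0.09 (SE 0.19) and RRAS at -0.13 (SE 0.22), and 0 of 5 measured RAS GTPase genes passed with either prior, with 0 at an unadjusted p under 0.05.

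Of 6 measured kinases of the RAF, MEK and ERK cascade 0 passed with either prior, with a median of -0.30. Of the 6, 4 were lower in both replicate numbers, a share not worked out over all genes. ARAF read 9.03 and 9.15 in treated cells and 9.37 and 9.70 in untreated cells (-0.45, SE 0.20), and MAP2K1, the gene of MEK1, stood at -0.36 (SE 0.20). MAP2K2 stood at -0.35 (SE 0.29) and the scaffold gene KSR1 at 0.05 (SE 0.20). Among genes that switch RAS off, NF1 read 5.92 and 5.89 in the meayamicin B arrays, against 6.72 and 6.75 in the untreated arrays. Its difference was -0.83 (SE 0.18), with limma adjusted p values of 0.201 with the default and 0.0787 with the trended prior, and it was -0.80 and -0.87 within replicates 1 and 2. RASA2, another GTPase activator, stood at -0.68 (SE 0.23), while RASA4 at 0.12 (SE 0.20) and RASAL1 at 0.11 (SE 0.23) were the highest. In this list 0 of 10 passed with either prior, with 2 at an unadjusted p under 0.05, where 9.42% of rows had one. Of 8 exchange factors, which switch RAS on, 0 passed with either prior, with 1 at an unadjusted p under 0.05. SOS2 stood at -0.40 (SE 0.26), SOS1 at -0.09 (SE 0.22) and RASGRP2 at 0.26 (SE 0.18). RASGRP1 had neither treated array above background, and its untreated mean lay 1.03-fold above that background. It did not pass (limma adjusted p = 0.375).

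NSD2 was set beside the other enzymes that write or erase methyl groups on H3K36. NSD1 read 8.69 and 9.10 in treated cells and 8.62 and 8.78 in untreated cells (0.19, SE 0.22), NSD3 stood at -0.30 (SE 0.19) and SETD2, which adds the trimethyl mark, at -0.01 (SE 0.20). Of 11 measured genes, NSD2 included, 0 passed with the default prior, with 3 at an unadjusted p under 0.05, where 9.42% of rows had one, and 1 fell with the trended prior, where 3.15% of named genes passed. That gene was SMYD2, a methyltransferase of histones and other proteins, at 7.24 and 6.86 in treated cells and 8.09 and 8.09 in untreated cells. Its difference was -1.04 (SE 0.21, limma adjusted p = 0.165 with the default and 0.0210 with the trended prior). It passed in 1 of the 4 fits that left out an array. KDM4C, a demethylase, stood at -0.84 (SE 0.20), KDM2A at 0.48 (SE 0.21) and KDM4A at 0.43 (SE 0.21), and the list's median was -0.26.

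Genes of proteins that read this mark had the lowest median of the lists, -0.64 over 10 measured genes. The median was -0.09 over named genes above background in both arrays of at least 1 group. The lists were chosen with earlier results of these data known, so this rank is a description only. Of the 10, 7 were lower in both replicate numbers, a share not worked out over all genes. With the default prior 0 of the 10 passed, with 6 at an unadjusted p under 0.05, where 9.42% of rows had one. With the trended prior 2 fell, where 3.15% of named genes passed. ZMYND11, a reader of methylated H3.3, read 8.40 and 8.47 in the meayamicin B arrays, against 9.32 and 9.20 in the untreated arrays (-0.82, SE 0.19, limma adjusted p = 0.0149 with the trended prior and 0.210 with the default). It passed in 2 of the 4 fits that left out an array, and GLYR1 (-0.72, SE 0.19) in 0 of the 4. DNMT3A, a DNA methyltransferase, was at least 2.20-fold lower, with both treated arrays below background (limma adjusted p = 0.162 with the default and 0.0511 with the trended prior). HDGFL2 stood at 0.06 (SE 0.18) and MORF4L1 at -0.07 (SE 0.19).

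The D cyclins drive the G1 phase of the cell cycle with CDK4 and CDK6, and each myeloma tends to express at least one of them. CCND1 lies on chromosome 11 at 69641156 to 69654474. Its row read 7.87 and 7.67 in the meayamicin B arrays, against 8.15 and 8.46 in the untreated arrays, with both treated arrays below both untreated arrays. The means were 7.77 ± 0.14 in treated cells and 8.30 ± 0.21 in untreated cells (SD, n = 2 arrays each). The difference was -0.53 (SE 0.21, limma adjusted p = 0.482 with the default and 0.228 with the trended prior), or 69.0% of the untreated level, with a 95% confidence interval of -1.02 to -0.05 before adjustment. Within replicate numbers it was -0.28 and -0.79. The row stood 2.84 and 2.54 above background in treated arrays and 3.66 and 3.70 in untreated arrays.

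CCND2 lies on chromosome 12 at 4273762 to 4305353. It read 10.42 and 10.32 in the meayamicin B arrays, against 10.65 and 10.57 in the untreated arrays. Both treated arrays were lower, by little. The means were 10.37 ± 0.07 in treated cells and 10.61 ± 0.05 in untreated cells (SD, n = 2 arrays each), a difference of -0.24 (SE 0.19, 95% confidence interval -0.68 to 0.20, limma adjusted p = 0.765). The differences within replicates 1 and 2 were close to each other, at -0.23 and -0.25. CCND3, the third D cyclin, stood at -0.09 (SE 0.19).

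The partners of the D cyclins were read with them as a list. Of 14 measured genes in the list, CCND1 and CCND2 included, 0 passed with the default prior, with 6 at an unadjusted p under 0.05, where 9.42% of rows had one, and 4 fell with the trended prior, where 3.15% of named genes passed. These were CDK4, RB1, RBL1 and RBL2, the last 3 being the retinoblastoma protein and its relatives, which restrain the cell cycle until the cyclin kinases phosphorylate them. CDK4 read 8.52 and 8.72 in the meayamicin B arrays, against 9.70 and 9.71 in the untreated arrays. Its difference was -1.09 (SE 0.19, limma adjusted p = 0.130 with the default and 0.00403 with the trended prior), and it passed in 4 of the 4 fits that left out an array. RBL2 stood at -0.99 (SE 0.19), RB1 at -0.93 (SE 0.19) and RBL1 at -0.90 (SE 0.20), and each passed in 3 of those 4 fits, all but the one without untreated replicate 2. The inhibitor gene CDKN1A, at 0.61 (SE 0.26), and CDKN2B, at 0.50 (SE 0.19), had the highest moderated t and did not pass. The median of the list was -0.20.

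**Figure D3:**
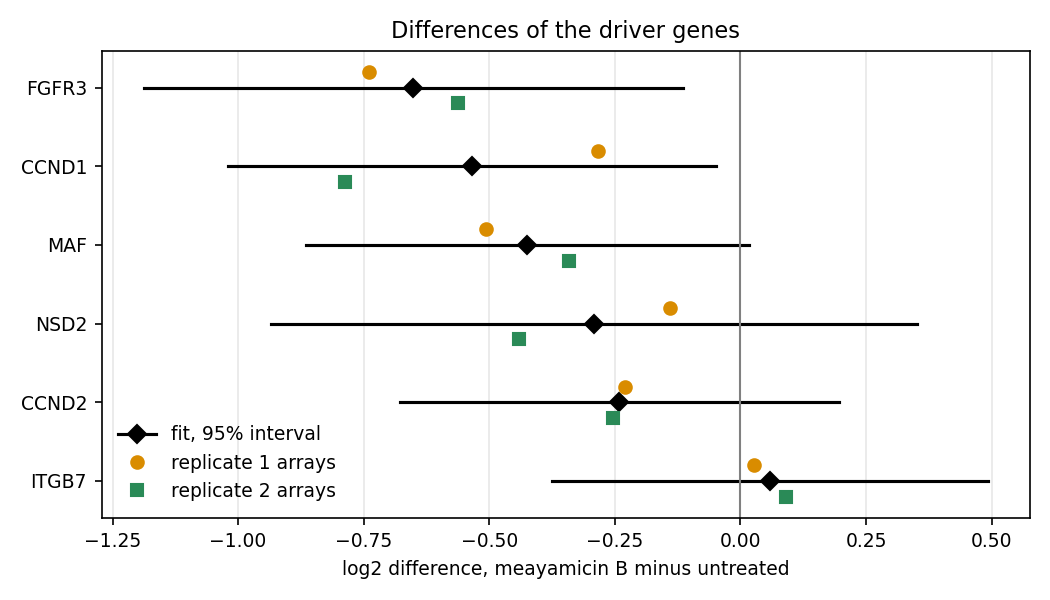
Log2 difference, meayamicin B minus untreated, of the 6 driver genes, ordered from lowest to highest. Black diamonds and bars are limma estimates with 95% confidence intervals, circles the difference within the replicate 1 arrays and squares that within the replicate 2 arrays. The intervals of FGFR3 and CCND1 lie below 0, and with adjusted p values of 0.427 and 0.482 neither passed. The value of ITGB7, 0.06, becomes -0.024 when arrays are centred on ribosomal protein genes.

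MAF, a basic leucine zipper transcription factor, lies on chromosome 16 at 79202622 to 79600737. Its row read 8.49 and 8.65 in the meayamicin B arrays, against 9.001 and 8.99 in the untreated arrays. Both treated arrays lie below both untreated arrays, and the untreated pair was close together. The means were 8.57 ± 0.11 in treated cells and 8.997 ± 0.005 in untreated cells (SD, n = 2 arrays each). The difference was -0.42 (SE 0.19, 95% confidence interval -0.87 to 0.02, limma adjusted p = 0.551 with the default and 0.229 with the trended prior), or 74.5% of the untreated level. It was -0.51 and -0.34 within replicates 1 and 2.

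Among relatives of MAF, BACH1 stood at 0.14 (SE 0.18), the small MAF gene MAFF at 0.05 (SE 0.19) and BACH2 at -0.23 (SE 0.22). MAFA, NRL and MAFG were above background in no array, and 0 of 7 measured genes of the family, MAF included, passed with either prior, with 0 at an unadjusted p under 0.05. The genes linked to MAF in myeloma were read next. CCR1, a chemokine receptor gene, read 9.07 and 8.93 in the meayamicin B arrays, against 9.61 and 9.31 in the untreated arrays (-0.46, SE 0.20). DEPTOR, an inhibitor of the mTOR kinase, stood at -0.21 (SE 0.19). Of the 7 measured genes of this list, CCND2 and ITGB7 included, 0 passed with either prior, and their median was -0.22. Of the 7, 5 were lower in both replicate numbers and 1, ITGB7, higher in both, shares not worked out over all genes. The mean difference of ITGB7 turns to -0.024 when centred on ribosomal protein genes.

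ITGB7, the beta 7 integrin subunit through which lymphocytes and myeloma cells adhere to other cells, lies on chromosome 12 at 53191323 to 53207251. It read 11.88 and 11.96 in the meayamicin B arrays, against 11.85 and 11.87 in the untreated arrays. The 4 arrays lie close together, and the treated pair lies just above the untreated pair. The means were 11.92 ± 0.06 in treated cells and 11.86 ± 0.01 in untreated cells (SD, n = 2 arrays each), a difference of 0.06 (SE 0.18, limma adjusted p = 0.963), and centring on ribosomal protein genes turned it to -0.024. The 95% confidence interval, -0.37 to 0.49, spans 0.771 to 1.41 times the untreated level. The alpha chains that pair with it, ITGA4 (-0.41, SE 0.20) and ITGAE (-0.34, SE 0.20), did not pass. ITGB1, the other beta partner of ITGA4, stood at 0.00 (SE 0.19). MADCAM1, a ligand of the ITGA4 and ITGB7 pair, stood at 0.49 (SE 0.23). Of 8 measured genes of this list 0 passed with either prior, with 1 at an unadjusted p under 0.05, where 9.42% of rows had one.

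Integrin activators, which link integrins to the cytoskeleton or switch them to their adhesive form, had a median of -0.22 over 13 measured genes. Of these 0 passed with either prior, with 5 at an unadjusted p under 0.05, where 9.42% of rows had one. Of the 13, 9 were lower in both replicate numbers, a share not worked out over all genes. APBB1IP, an adaptor between RAP1 and talin, was at least 1.40-fold lower, being below background in both treated arrays. FERMT2, a kindlin, was also below background in both treated arrays, and its untreated values of 4.73 and 4.90 lie below the background of the treated arrays, so no fold is given. RAP1A stood at 0.20 (SE 0.20) and RAP1B at -0.02 (SE 0.20).

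The promoters of MAF and ITGB7 are shown as those of a regulator and of a gene it is known to activate, whose rows differed by -0.42 and 0.06. They lie at chr16:79600688-79600987 and chr12:53207202-53207501, both on the minus strand of RefSeq GRCh38.p14, and are printed in the direction of transcription. Capitals mark matches to the same 7 motifs.
MAF: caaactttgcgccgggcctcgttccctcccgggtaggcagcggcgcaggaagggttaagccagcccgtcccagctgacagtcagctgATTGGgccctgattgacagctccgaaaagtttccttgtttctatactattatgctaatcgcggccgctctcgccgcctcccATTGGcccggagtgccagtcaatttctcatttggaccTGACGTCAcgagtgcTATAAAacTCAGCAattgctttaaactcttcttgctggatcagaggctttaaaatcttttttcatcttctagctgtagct
ITGB7: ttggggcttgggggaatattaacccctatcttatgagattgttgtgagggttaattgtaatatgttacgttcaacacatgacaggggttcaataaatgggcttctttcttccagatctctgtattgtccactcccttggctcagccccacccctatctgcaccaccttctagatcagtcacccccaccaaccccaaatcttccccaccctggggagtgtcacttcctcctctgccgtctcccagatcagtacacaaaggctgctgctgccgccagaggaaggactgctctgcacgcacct
The MAF window holds 1 TATA box 30 bases before the start, 1 cyclic AMP response element 45 bases before it, 1 MAF half-site 22 bases before it and 2 CCAAT boxes, with no GC box. The shares of all promoters with these motifs are 11.5% for the TATA box, 1.85% for the cyclic AMP response element and 17.3% for the MAF half-site. The ITGB7 window holds none of the 7 motifs, which says only that these letters are not in these bases. Both windows have 51.7% G and C.

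Other genes that are mutated or deregulated in myeloma were read as a list of 15 measured genes. With the default prior 0 passed, with 6 at an unadjusted p under 0.05, where 9.42% of rows had one. With the trended prior 3 fell and 1 rose, where 3.15% of named genes passed. EGR1, an immediate early gene downstream of ERK, read 6.23 and 5.86 in the meayamicin B arrays, against 7.26 and 7.37 in the untreated arrays (-1.27, SE 0.21, limma adjusted p = 0.115 with the default and 0.0149 with the trended prior). It passed in 1 of the 4 fits that left out an array. MAX, the partner of MYC, fell by 0.68 on the log2 scale (limma adjusted p = 0.0464 with the trended prior) and passed in 0 of the 4, and RB1 is the gene given above. PRDM1, a plasma cell transcription factor, rose with the trended prior by 0.45 (limma adjusted p = 0.0215 with the trended prior, and 0.513 with the default prior, whose SE was 0.18) and passed in 0 of the 4. TRAF3, a regulator of NF-kB, stood at 0.46 (SE 0.21).

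**Figure D4:**
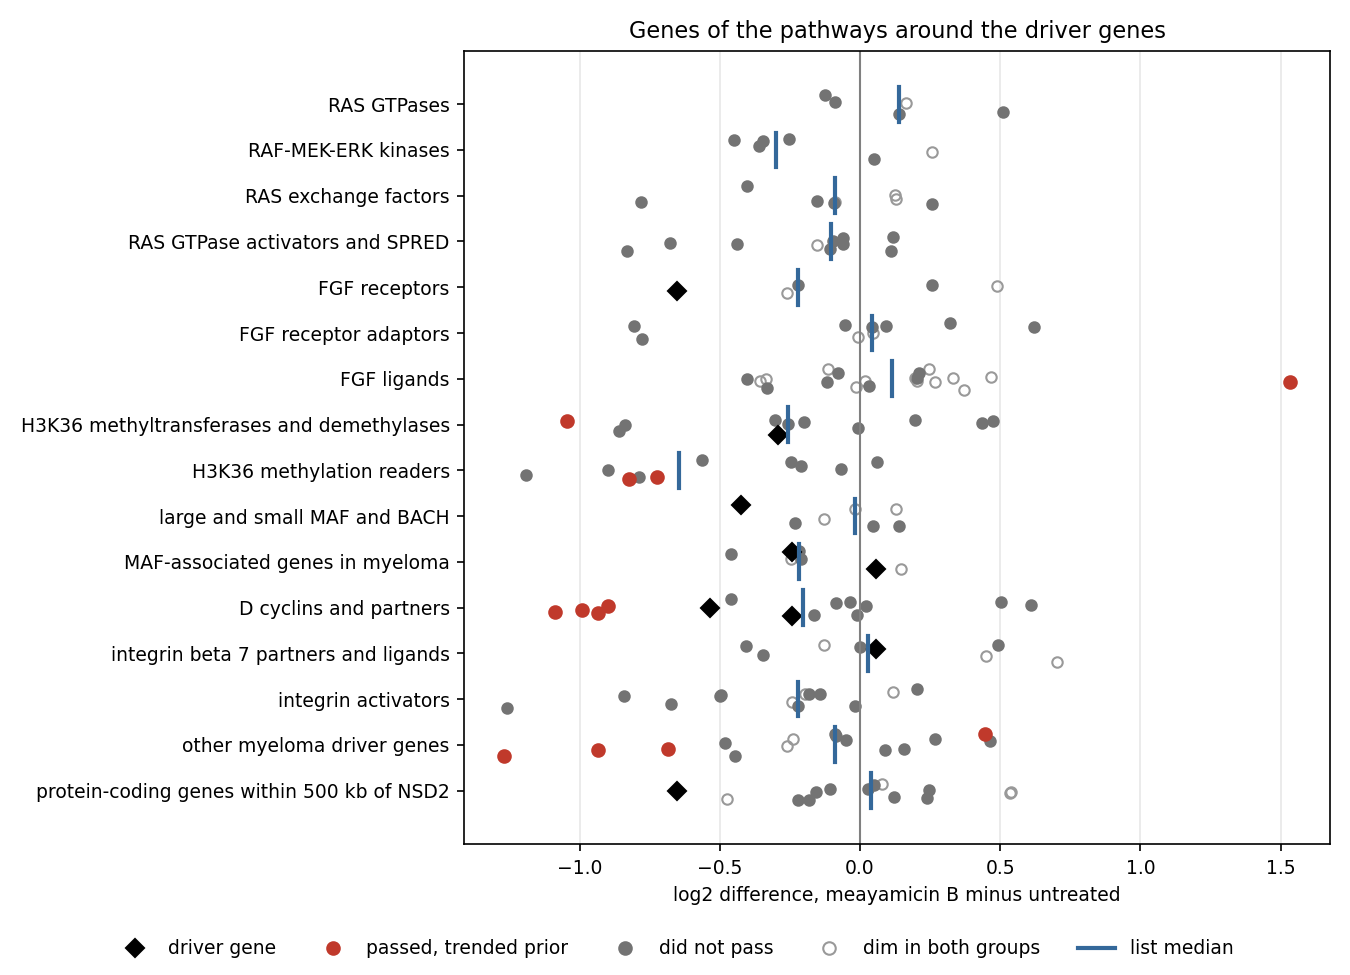
Log2 difference, meayamicin B minus untreated (horizontal axis), of each measured gene in the lists around the driver genes, with 1 row per list. Black diamonds are driver genes, red points passed with the trended prior, grey points did not, open points were below background in at least 1 array of each group, and blue bars are list medians. No driver gene passed with either prior. ITGB7 is in lists with medians of 0.03 (integrin beta 7 partners and ligands) and -0.22 (MAF-associated genes). The median of the H3K36 readers is -0.64.

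Genes whose 4 values followed those of a driver gene most closely were found as the 3 with the smallest root mean square distance between values centred on each gene's mean, among 12397 other genes above background in all arrays. For FGFR3 they were MIR7111, GOLGA8B and MTA1, at distances of 0.0128, 0.0182 and 0.0198 on the log2 scale, and 144 genes lay within 0.1. For NSD2 they were DENND4B, KDM5B and SMURF1, at 0.0302, 0.0303 and 0.0454, with 47 within 0.1. MYO9A, ROBO1 and RNA5SP82 were nearest to CCND1, with 352 within 0.1, and MRPL37, SELENOI and ZNF75D to CCND2, with 1388. CYREN, SLC25A10 and SENP8 were nearest to MAF, with 766, and DNAJC9, RPS15AP17 and GAA to ITGB7, with 2082. With 4 arrays such closeness is common, as these counts show, and it is a description only.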

How the data were processed

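Per the submitters' processing notes, the authors made RMA values in Transcriptome Analysis Console on build hg38. Versions are not given in the sources used here, and the deposited values are log2 expression, judged by their range. RMA subtracts background and equalises the arrays, which hides any shift of all RNA and shrinks differences of dim rows. Groups and replicate numbers came from the titles, and nothing says whether replicates were separate cultures. The p-values therefore cover the spread among the 4 arrays alone, which may be technical.

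Of 138745 rows, 2995 control rows were left out. Rows were named through the platform annotation, updated through RefSeq GRCh38.p14. Of the 135750 rows tested 36176 carried 1 symbol, 1119 several and 98455 none, and for a gene with several rows the brightest on average was used. Meayamicin B was compared with untreated over all rows by limma 3.58.1 in R 4.3.3 (lmFit, eBayes, Benjamini-Hochberg, threshold 0.05), with 2 residual degrees of freedom and 5.12 from the prior. Printed SEs and intervals are those of the default prior, also beside p-values of the trended prior. The procedure was tested on simulated data with differences much larger than those of the driver genes. Whether it finds differences of their size was not tested. A gene counts as above background when it exceeds the 95th percentile of its array's negative controls. A fold against the background of a group with no array above it is a lower bound between the measured means only. It takes no account of the spread among arrays. In it each dim array counts at its background or its own value, whichever is higher.

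The members and lists were chosen with earlier results of these data known. Named genes are all members and the 3 nearest genes of each member. Of each list other than the cell type markers, up to 2 highest and 2 lowest by moderated t are named, among genes above background in a group. SCARNA22, genes passing with the trended prior and other list members given for their role were named outside this rule. Deviations of same-numbered arrays correlated at r = 0.02 over all rows, and the fit has no replicate block. The alternatives were the trended (and robust) prior, a replicate block, centring on ribosomal protein genes, a repeated quantile normalization, testing bright rows only, averaging a gene's rows and omitting each array in turn. The trended prior combined with the block, and with each array left out, was added after the data were seen. Protein sequences were not used here.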

Additional observations from a re-analysis of the deposited data

How the results depend on the processing

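The count of driver genes past the threshold was 0 under every alternative run, while the rows called over the whole table, with all 4 arrays in, ran from 18 when centred on ribosomal protein genes to 3546 with the trended prior and replicate block. With the default prior and 1 array left out, limma passed 0 rows of the whole table, and with the trended prior 462 to 1303. The lowest limma adjusted p of any driver gene under an alternative was 0.0941, for CCND1 with the trended prior and replicate block. With the replicate number as a block and the default prior, FGFR3 had a limma adjusted p of 0.346 and 0 list genes passed, and the block changed no call among the 6 genes. Directions held except for ITGB7, which was -0.024 when centred on ribosomal protein genes, and NSD2, which ranged from -0.63 to 0.044 when arrays were left out, 0.044 being without untreated replicate 2; the cause was not tested. The ranges without 1 array were -0.87 to -0.43 for FGFR3, -0.69 to -0.38 for CCND1, -0.29 to -0.19 for CCND2, -0.50 to -0.35 for MAF and 0.02 to 0.10 for ITGB7. Among 151 other genes of the pathway lists, limma passed 0 with the default prior, and 33 had an unadjusted p under 0.05, where 9.42% of all rows had one. It passed 11 with the trended prior, where 3.15% of named genes passed. Both shares include dim rows, and those among genes above background were not worked out. For the settings that follow, no share over named genes was worked out, so their counts do not set the list genes apart. With the filter on dim rows, which tests fewer rows, limma passed 11 of the list genes, and 1682 rows in all. With the trended prior and replicate block it passed 23 of the list genes, and 3546 of all 135750 rows. Leaving out an array under the trended prior gave 1 to 8 such genes, 1 without untreated replicate 2, 5 without untreated replicate 1, 5 without meayamicin B replicate 2 and 8 without meayamicin B replicate 1. The median log2 difference of genes above background in all arrays was -0.07, and quantile normalization shifted it by 0.07 and ribosomal centring by -0.08. Precision is limited by having 2 arrays per group, and FGFR3 has little signal over background.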
